A study of Mus musculus with 8 samples.

Results

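The genes for collagen alpha chains were followed through the cell classes of the aged mouse ascending thoracic aorta, where the aorta leaves the heart. The chains were all genes whose symbol has the form Col, a type number, the letter a and a chain number, which gave 44 of the 32285 genes of the count matrix. They comprised 11 fibrillar, 8 basement membrane, 9 FACIT, 3 network, 6 beaded filament and 7 other chains. In all, 37 chains had at least 50 UMIs (unique molecular identifiers, which count each captured RNA molecule once) in the kept cells. The sparse ones were Col24a1 with 6 UMIs, Col22a1 with 37, Col6a4 with 3, Col7a1 with 40, Col17a1 with 43, Col25a1 with 14 and Col26a1 with 3.

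The animals were 3 wildtype mice, and a deposited reference table gives hashtag 1 to the animal of 81 weeks, hashtag 2 to that of 84 weeks and hashtag 3 to that of 88 weeks. A hashtag is an antibody with a DNA barcode that tags each cell with its animal of origin, so that pooled cells can be told apart. Cells were released with collagenase II (10 mg/mL) and elastase (1 mg/mL) in 60 min at 37 °C, strained at 70 µm and freed of dead cells. All groups share the advanced age and the digestion, and no strain, sex or treatment is given. Younger animals were not analysed here, so the comparisons are between cells of the same animals.

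Collagens are triple helices of 3 alpha chains. Fibrillar collagens, chiefly types I and III, carry the tensile load of the arterial media and adventitia, with type V at the core of the fibrils. FACITs such as type XIV sit on fibril surfaces, type VI forms beaded filaments around cells, and type VIII forms short-chain networks, known from vascular matrix. Type IV is the sheet-forming collagen of basement membranes, assembled from heterotrimers whose chains are encoded by head-to-head gene pairs. Types XV and XVIII are basement membrane zone proteoglycans, and type XVIII is the precursor of endostatin.

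The 26916 barcodes held 142108011 gene UMIs, and filters, doublet removal and removal of cells with more than 1 hashtag left 10408 cells with a median of 8757 UMIs. No cell barcode occurred more than once. Classes were named from marker genes and are called endothelial-like (988 cells), smooth muscle-like (4765 cells), fibroblast-like (1296 cells) and so on. Collagen genes took no part in the clustering, but genes that vary with them did. Tests between clusters used the same cells that defined the clusters, and their adjusted p does not allow for that. Only 9.97% of smooth muscle-like and 16.4% of fibroblast-like cells carried exactly 1 hashtag, against 91.5% of endothelial-like cells, so the values per animal rest on the marked cells. Each set of marked cells of 1 animal and class is called a hashtag set here. The 81, 84 and 88 week sets held 225, 406 and 273 endothelial-like cells, 135, 166 and 174 smooth muscle-like cells and 42, 125 and 46 fibroblast-like cells. Hashtag counts of at least 2 times the cutoff were found in 193, 252 and 220 of these endothelial-like cells. They were found in 34, 15 and 48 smooth muscle-like and 10, 16 and 23 fibroblast-like cells. Cells with at least 2 T cell UMIs made up 57.3% of marked and 28.6% of all fibroblast-like cells. In the smooth muscle-like class they made up 31.8% and 23.0%. Whether each hashtag came from the cell's own animal was not tested. Of chains at 50 CPM or more (the chain's UMIs scaled to a common total of UMIs), the marked cells had between 0.930 and 1.09 times the level of all cells in 15 smooth muscle-like chains, and between 0.806 and 1.26 times in 19 fibroblast-like chains. The 3′ libraries count 1 end of each transcript, so CPM does not scale with transcript length, though capture can differ between genes. A level is thus a share of the RNA captured from the cells.

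The wall classes differed in how much of their RNA was collagen and in which collagen it was. Collagen chains made up 0.266% of all UMIs in endothelial-like cells, 0.572% in smooth muscle-like cells and 1.28% in fibroblast-like cells. Collagen of the endothelial-like class, a cluster led by capillary genes, was mostly of basement membrane type. Smooth muscle-like collagen was split between fibrillar and basement membrane chains, and fibroblast-like collagen was mainly fibrillar. Basement membrane chains held 89.4% ± 0.74 of collagen UMIs in endothelial-like, 40.7% ± 1.76 in smooth muscle-like sets and 10.9% ± 1.91 in fibroblast-like sets (SD, n = 3 each). Under 4 alternatives the endothelial-like share, pooled over cells, was 73.7% to 85.6%. Large-vessel endothelial cells lay outside the class, and their sets averaged 171 CPM of Col1a2 and 151 CPM of Col5a2, both fibrillar, beside 177 CPM of Col4a1 and 124 CPM of Col4a4. Fibrillar chains held 6.07% ± 0.18, 48.0% ± 1.18 and 67.4% ± 3.97 in the same order of classes. FACITs held 0.50% ± 0.22 in endothelial-like, 2.88% ± 0.13 in smooth muscle-like sets and 10.7% ± 0.98 in fibroblast-like sets, and beaded filament chains 1.52% ± 0.23, 8.25% ± 0.49 and 10.4% ± 1.43. The ranges of these 4 shares did not overlap between classes, other than beaded filament chains, where the smooth muscle-like range of 7.83% to 8.79% met the fibroblast-like range of 8.78% to 11.4%.

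**Figure D1:**
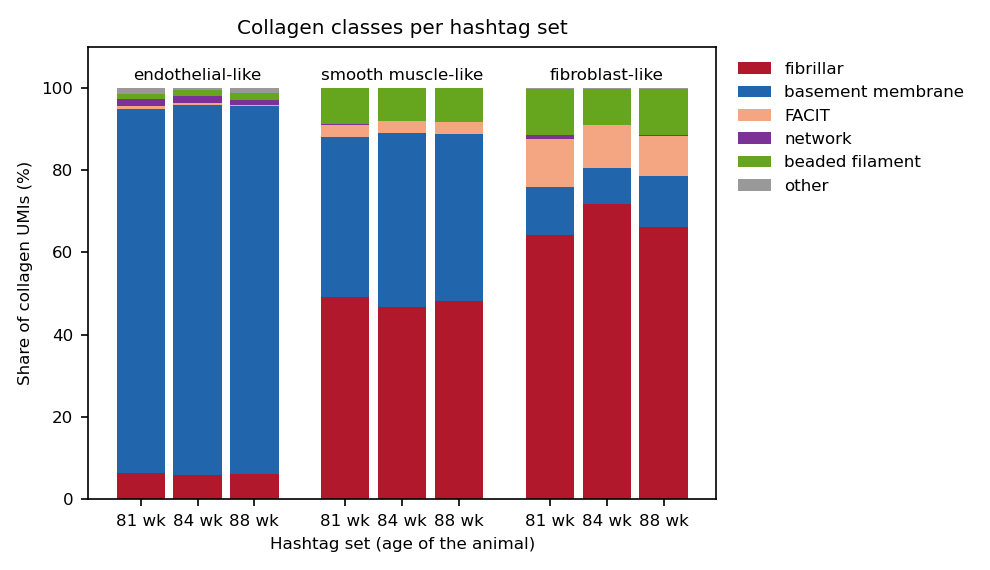
Stacked bars give the share of collagen UMIs (%, y axis) held by each collagen class in each hashtag set (x axis, age of the animal in weeks), with endothelial-like, smooth muscle-like and fibroblast-like sets from left to right. Basement membrane chains hold 88.6% to 90.05% in the 3 endothelial-like sets, and fibrillar chains hold 64.2% to 71.8% in the 3 fibroblast-like sets.

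Cells that should not make collagen served as a reference for these values. T cell-like cells, pooled over hashtag states, had 0.0372% of their UMIs in collagens, of which 52.1% were fibrillar and 34.5% basement membrane. Col1a1 stood at 22.6 CPM (95% Poisson interval 18.6 to 27.2) in endothelial-like cells and at 30.6 CPM (27.2 to 34.4) in T cell-like cells. Col3a1, the type III chain, stood at 64.6 CPM in endothelial-like cells and 79.9 CPM in T cell-like cells. Once every cell was thinned to 1000 UMIs, 2.73% of endothelial-like and 3.23% of T cell-like cells had a Col1a1 UMI, at median depths of 3968.5 and 3783.5 UMIs. Endothelial-like levels of Col1a1 and Col3a1 were thus no higher than those of T cell-like cells. All fibrillar chains together averaged 168 ± 36.6 CPM in endothelial-like, 185 ± 19.5 in T cell-like and 773 ± 626 CPM in macrophage-like sets (SD, n = 3 each). The summed smooth muscle marker level of T cell-like cells was 2292 CPM. How much of these levels came from RNA of other cells was not tested. The Poisson intervals of Col1a1 cover counting error only. Erythroid-like cells, which should also lack collagen, had 0.405% of UMIs in collagens and a summed smooth muscle marker level of 30160 CPM, against 43990 CPM in smooth muscle-like cells, so their collagen values were not read as expression.

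Among the 10 classes with at least 50 cells, fibroblast-like cells and chondrocyte-like cells each had the highest pooled level of 13 of the 37 chains. Endothelial-like cells were highest for Col4a1, Col4a2 and Col28a1. Smooth muscle-like cells were highest for Col18a1, Col4a5 and Col4a6, pericyte-like cells for Col13a1 and Col19a1, and mesothelial-like cells for Col4a4, Col6a5 and Col20a1. Of these, Col20a1 reached 1.68 CPM at most and Col13a1 9.02 CPM. Among the chains highest in the 96 chondrocyte-like cells, all Col10a1 UMIs came from 1 cell. A single cell also held 58.2% of their Col2a1 UMIs, and 1 cell held 37.8% of their Col27a1 UMIs. Col5a2 was nearly level, at 251 CPM in chondrocyte-like and 241 CPM in fibroblast-like cells.

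**Figure D2:**
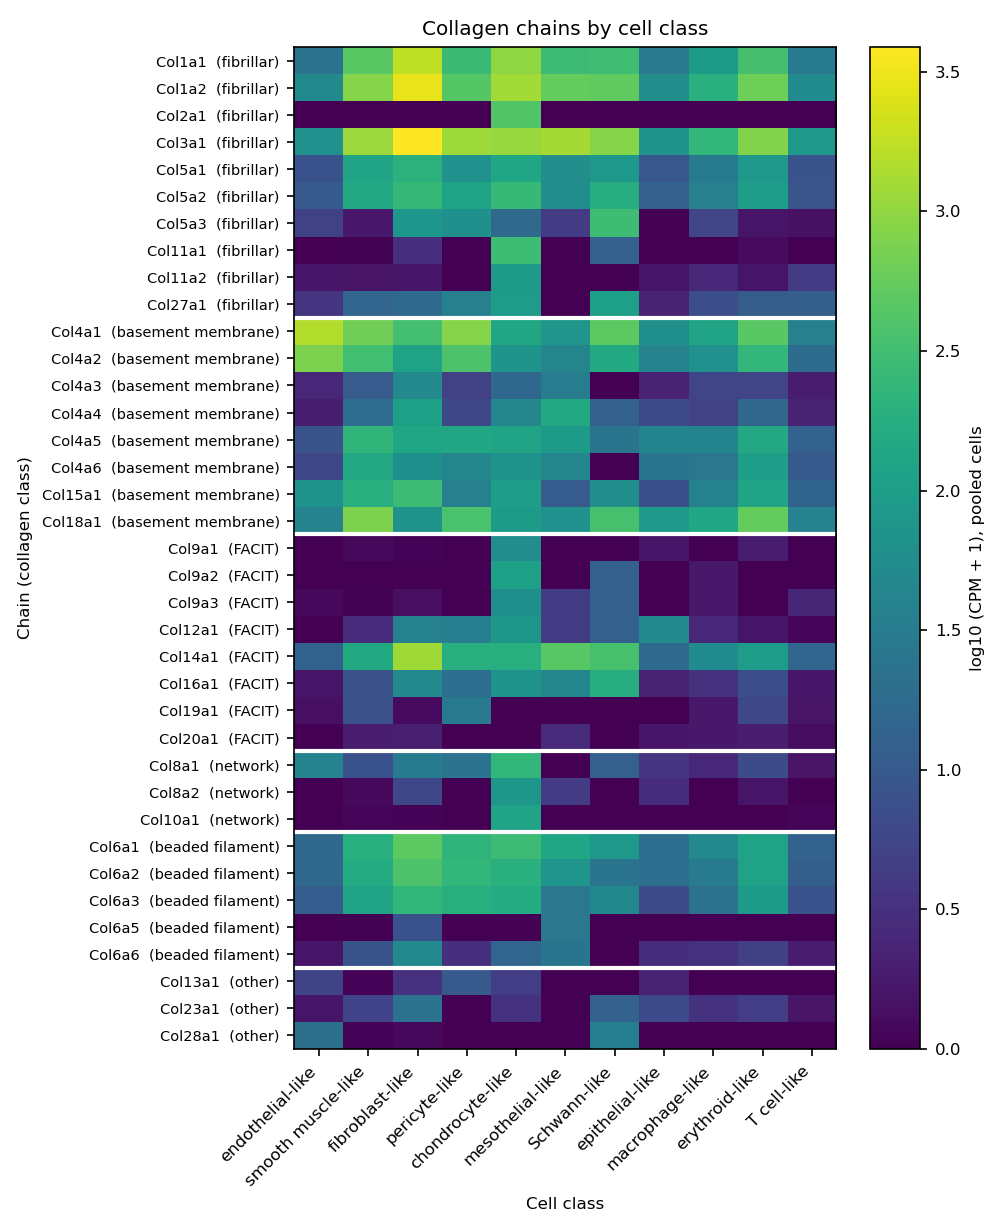
The colour gives log10 (CPM + 1) of pooled cells for the 37 chains with at least 50 UMIs (rows, by collagen class) in 11 cell classes (columns). Col2a1, Col9 and Col10a1 rows are bright in chondrocyte-like cells, where all Col10a1 UMIs came from 1 cell. Col4a1 is brightest in endothelial-like cells with 1505 CPM, and Col18a1 in smooth muscle-like cells with 795 CPM.

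Endothelial-like cells were set against smooth muscle-like cells. The endothelial-like class here was 1 cluster led by the capillary genes Gpihbp1, Cd36 and Fabp4. Large-vessel endothelial cells, described below, were not in it. When marked cells were clustered alone, endothelial-like cells also gave a Sema3g cluster of 148 cells beside a capillary type of 511 cells. The pair Col4a1 and Col4a2, which form the common type IV trimer, rose, and 18 chains fell, with every fibrillar, FACIT and beaded filament chain tested among them. Col4a1 had 1574, 1236 and 1873 CPM in the 81, 84 and 88 week endothelial-like sets, against 628, 657 and 647 CPM in the smooth muscle-like sets. All 3 endothelial-like sets were above all smooth muscle-like sets, and the log2 fold change was 1.21 ± 0.11 (SE) with an adjusted p of 1.78e-11 (edgeR quasi-likelihood test with Benjamini-Hochberg adjustment over all genes, as for every adjusted p here). Col4a2 had 761, 647 and 908 CPM in endothelial-like sets, against 326, 332 and 325 CPM in smooth muscle-like sets (log2 fold change 1.17, SE 0.11, adjusted p = 3.46e-11). Both log2 fold changes were 0.84 to 0.96, under the size of 1 needed for a call, with a 10% mitochondrial limit, with matrix genes kept in the clustering and at resolution 1.2. Without the 88 week set Col4a2 stood at 0.9999.

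Of 22 chains tested, 4 were called higher and 18 lower, against 17.6% higher and 18.4% lower among all genes in the test. The median log2 fold change was -3.59 over these chains and 0.02 over all genes. Among basement membrane chains 2 rose and 6 fell. Col4a5 and Col4a6, the X-linked type IV pair of smooth muscle and kidney basement membranes, fell by 4.80 and 4.90 on the log2 scale (SE 0.18 and 0.22, adjusted p = 5.35e-21 and 5.37e-19). Col4a5 averaged 7.80 ± 1.85 CPM in endothelial-like sets and 207 ± 9.01 CPM in smooth muscle-like sets (SD, n = 3 each). Col18a1 had 43.5, 31.2 and 46.1 CPM in endothelial-like sets, against 797, 780 and 767 CPM in smooth muscle-like sets (log2 fold change -4.35, SE 0.14, adjusted p = 3.00e-23). Its endothelial-like level of 38.7 CPM, pooled, equalled the 38.6 CPM of T cell-like cells. Col15a1, the close relative of Col18a1, fell by 1.52 on the log2 scale, and its endothelial-like sets spread from 26.2 to 101.9 CPM. With no doublet removal its log2 fold change was -0.80, no longer a call. Col4a3 and Col4a4, the pair best known from the kidney glomerulus, fell by 2.45 and 4.57, on 8 and 3 UMIs in the endothelial-like sets. Under 4 alternatives, in which the class took in a large-vessel cluster described below, Col4a4 instead had log2 fold changes of 0.35 to 0.64 and was not called. Col4a3 lost its call in 3 of them, at -0.11 to 0.089.

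The fibrillar chains Col1a1, Col1a2, Col3a1, Col5a1, Col5a2 and Col27a1 fell, with log2 fold changes between -4.46 and -2.43. Col1a1 averaged 24.4 ± 4.49 CPM in endothelial-like sets and 509.8 ± 35.9 CPM in smooth muscle-like sets (log2 fold change -4.46, SE 0.14, adjusted p = 5.62e-23). Col3a1 averaged 66.3 ± 21.2 CPM in endothelial-like sets and 1052 ± 129.6 CPM in smooth muscle-like sets (log2 fold change -4.07, SE 0.14, adjusted p = 2.56e-22). The FACITs Col14a1 and Col16a1 fell by 3.75 and 3.34, and the beaded filament chains Col6a1, Col6a2, Col6a3 and Col6a6 by 3.51, 3.40, 3.65 and 3.53. Most of the endothelial-like values sit near the T cell-like level, and how far this limits these fold changes was not tested.

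Beyond type IV, 2 sparse chains rose. Col8a1, a network chain of the vascular intima, had 47.9, 34.1 and 39.9 CPM in endothelial-like sets, against 8.97, 7.17 and 4.42 CPM in smooth muscle-like sets (log2 fold change 2.52, SE 0.24, adjusted p = 6.76e-11), and T cell-like cells had 0.535 CPM. When marked cells were clustered alone, the capillary type of 511 cells had 2.06, 3.87 and 8.02 CPM, and a Sema3g cluster of 148 cells averaged 213 CPM on 49, 65 and 45 UMIs. Col28a1, a chain with von Willebrand factor type A domains known from peripheral nerve, had 33, 18 and 48 UMIs in the endothelial-like sets and 0 UMIs in the smooth muscle-like sets. Its pooled level was at least 44.0-fold higher, with a floor of 3 UMIs over the smooth muscle-like sets. Col28a1 passed the filter on low counts through the endothelial-like sets alone, so its call adds nothing to these counts. Its 100 UMIs in all endothelial-like cells came from 62 cells with at most 5 UMIs each, against 5 UMIs in all 4765 smooth muscle-like cells. T cell-like cells had 0 UMIs, which allows up to 0.321 CPM.

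Of the helpers that fold and modify collagen, 1 of 16 tested genes rose and 7 fell in endothelial-like cells. Among all genes in the test 17.6% were higher and 18.4% lower. Plod1, a lysyl hydroxylase, rose by 1.79 on the log2 scale, and the prolyl hydroxylase family member P3h3 fell by 3.62 and the chaperone Fkbp10 by 2.77. Of genes for secretion, trimming and crosslinking, 0 of 8 rose and 6 fell, among them the crosslinking enzymes Loxl3 and Loxl1, by 4.26 and 4.04. Among receptors 1 of 6 rose, the collagen-binding integrin chain Itga1, by 1.64, and 5 fell, among them Mrc2 and Ddr1, by 4.13 and 4.04.

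Smooth muscle-like cells were set against fibroblast-like cells, the main collagen makers of the media and adventitia. Of 23 chains tested, 3 rose and 13 fell, against 10.9% higher and 13.4% lower among all genes in the test. All chains that rose were of basement membrane type, and fibrillar, FACIT, beaded filament and network chains were called lower or not called. The median log2 fold change was -1.39 over these chains and 0.00 over all genes. Col18a1 had 797, 780 and 767 CPM in the smooth muscle-like sets, against 125, 47.1 and 60.98 CPM in the fibroblast-like sets. Every smooth muscle-like set was above every fibroblast-like set, and the log2 fold change was 3.65 ± 0.17 (SE) with an adjusted p of 6.62e-17. Col15a1 ran the other way without reaching a call, averaging 183 ± 9.65 CPM in smooth muscle-like sets and 393 ± 116 CPM in fibroblast-like sets (log2 fold change -0.88). Smooth muscle-like cells had 0.233 Col15a1 UMIs per Col18a1 UMI, against 4.26 in fibroblast-like cells (95% intervals 0.228 to 0.238 and 3.92 to 4.63, counting error only). By animal the ratio was 0.227, 0.223 and 0.252 in smooth muscle-like sets, against 3.13, 5.92 and 8.38 in fibroblast-like sets, a spread wider than that interval.

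Within type IV, Col4a2 rose by 1.48 (SE 0.14, adjusted p = 3.37e-10) and Col4a6 by 1.39 (SE 0.16, adjusted p = 2.02e-08). Their partners Col4a1 and Col4a5 reached 0.93 and 0.99 with adjusted p = 1.94e-07 and 1.23e-06, just short of the size needed for a call, which Col4a1 passed without the 81 week set at 1.08. Col4a1 had 628, 657 and 647 CPM in smooth muscle-like sets, against 456, 290 and 440 CPM in fibroblast-like sets. The pair Col4a3 and Col4a4 fell instead, by 2.10 and 2.65. Col4a4 had 13.2, 16.6 and 18.99 CPM in smooth muscle-like sets, against 96.4, 118 and 132 CPM in fibroblast-like sets. Col4a2 and Col4a6 were thus higher, and Col4a3 and Col4a4 lower, in smooth muscle-like sets. Without cells that held at least 2 T cell UMIs, the Col4a2 log2 fold change was 0.96, no longer a call; such cells made up 31.8% of marked smooth muscle-like and 57.3% of marked fibroblast-like cells.

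The fibrillar chains that fell were Col5a3, Col3a1, Col1a1 and Col1a2, and Col5a1, Col5a2 and Col27a1 were not called. Col5a3, the scarcest of the type V chains, had 5 UMIs in the smooth muscle-like sets against 178 in the fibroblast-like sets, or 0.845 ± 0.38 against 105 ± 22.7 CPM (log2 fold change -6.68, SE 0.34, adjusted p = 7.52e-16). Col1a1 had 488, 490 and 551 CPM in smooth muscle-like sets, against 1446, 1656 and 1710 CPM in fibroblast-like sets (log2 fold change -1.48, SE 0.09, adjusted p = 5.26e-14). Col3a1 had 1199, 956 and 1000.4 CPM in smooth muscle-like sets, against 3047, 3828 and 3534 CPM in fibroblast-like sets (log2 fold change -1.56, SE 0.10, adjusted p = 1.25e-13). The FACIT Col14a1 had 159, 133 and 150 CPM in smooth muscle-like sets, against 1222, 1168 and 1237 CPM in fibroblast-like sets (log2 fold change -2.87, SE 0.10, adjusted p = 2.48e-19). None of these sets overlapped. Col16a1, another FACIT, fell by 2.77.

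Of 4 type VI chains tested, which form filaments around cells, 3 fell. Col6a1 averaged 177 ± 16.0 CPM in smooth muscle-like sets and 550 ± 87.4 CPM in fibroblast-like sets (log2 fold change -1.45, SE 0.11, adjusted p = 6.24e-12), and Col6a2 and Col6a6 fell by 1.24 and 2.02. Col6a3 was not called, at -0.89. The transmembrane chain Col23a1 fell by 2.25, on 21 and 31 UMIs. Col8a1 had 8.97, 7.17 and 4.42 CPM in smooth muscle-like sets, against 88.6, 23.1 and 10.2 CPM in fibroblast-like sets (log2 fold change -2.16, SE 0.36, adjusted p = 1.04e-05), so its fibroblast-like mean rests largely on the 81 week set of 42 cells. Of the helpers, 1 of 16 folding genes rose, P3h2, by 4.16, and 0 fell, against 10.9% higher and 13.4% lower among all genes in the test. Of 8 genes for secretion, trimming and crosslinking, 0 rose and 6 fell, led by the procollagen C-proteinase enhancers Pcolce and Pcolce2, which fell by 5.31 and 3.10. Receptors split, with 4 of 7 higher, led by the integrin chains Itga1 (2.63) and Itgb1 (1.96), and 3 lower, led by Itga11 (-4.63) and Mrc2 (-1.65).

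**Figure D3:**
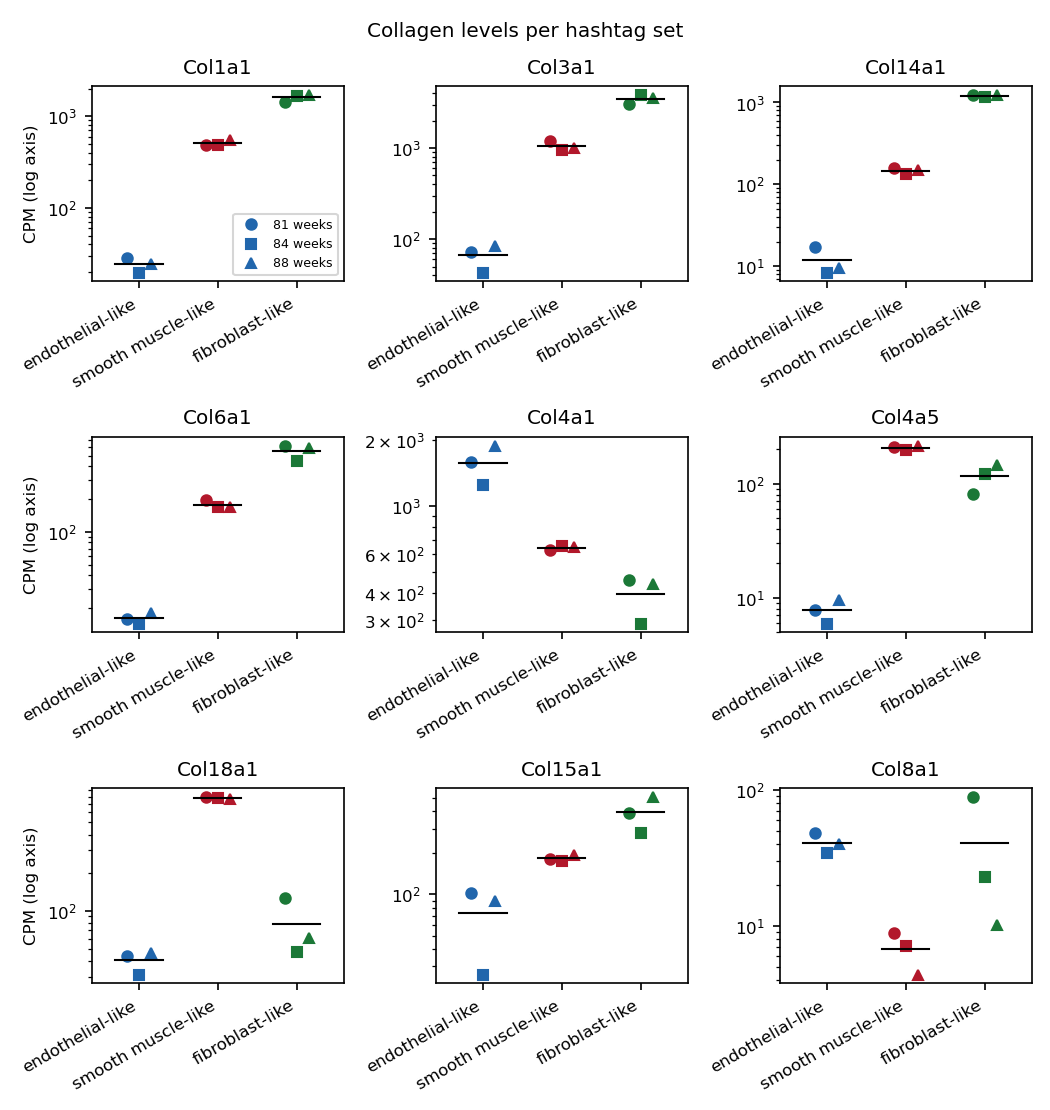
Each panel gives 1 chain in CPM on a log axis, with 1 point per hashtag set and a bar at the mean, for endothelial-like, smooth muscle-like and fibroblast-like sets from left to right. Col1a1, Col3a1, Col14a1 and Col6a1 climb in that order of classes, Col4a1 descends, and Col18a1 peaks in smooth muscle-like sets at 767 to 797 CPM.

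Endothelial-like cells against fibroblast-like cells share their samples with both comparisons above. Of 23 chains tested, 2 rose and 19 fell, against 14.1% higher and 17% lower among all genes in the test, and the median log2 fold change was -4.67 over the chains and 0.01 over all genes. Col4a2 rose by 2.54 (SE 0.13, adjusted p = 2.10e-11) and Col4a1 by 2.03 (SE 0.12, adjusted p = 6.80e-11). Col4a4 had 3 UMIs in the endothelial-like sets against 217 in the fibroblast-like sets (log2 fold change -7.22, SE 0.36, adjusted p = 1.41e-11). Col14a1 averaged 11.8 ± 4.89 CPM in endothelial-like and 1209 ± 36.2 CPM in fibroblast-like sets (log2 fold change -6.70, SE 0.18, adjusted p = 5.20e-15). All 7 fibrillar chains tested fell, with Col1a1 at -6.03, Col1a2 at -5.64, Col3a1 at -5.71, Col5a1 at -4.72, Col5a2 at -4.53, Col5a3 at -4.50 and Col27a1 at -2.55. Col16a1, Col6a1, Col6a2, Col6a3, Col6a6, Col4a3, Col4a5, Col4a6, Col15a1 and Col23a1 also fell, by 2.54 to 6.13. The Col23a1 call (-4.60) was lost under 4 alternatives in which the class held a large-vessel cluster, with log2 fold changes of -1.0004 to -0.58. Col18a1 (-0.82) and Col8a1 (0.21) were not called, though Col18a1 was called without the 88 week set, at -1.01. Of folding genes 1 of 15 rose, Plod1, by 1.85, and 9 fell, led by P3h3 and Plod2 (-4.34 and -2.54). All 8 genes for secretion, trimming and crosslinking fell, led by Pcolce2 and Loxl1 (-7.19 and -5.14). Of 6 receptors, Itga1 rose by 4.15 and 4 fell, led by Mrc2 and Itga11 (-5.85 and -5.63).

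The type IV genes lie as head-to-head pairs in the GRCm38.p6 annotation, the patch release of the mm10 build that the labels name. Col4a1 (ENSMUSG00000031502, chr8:11198423-11312889) and Col4a2 (chr8:11312805-11449287) overlap by 85 bases at their starts. Col4a4 (chr1:82448419-82587034) and Col4a3 (chr1:82586921-82722059) overlap by 114 bases, and Col4a6 (chrX:141165403-141474095) and Col4a5 (chrX:141475370-141689236) lie 1274 bases apart. Over the 22 clusters, Pearson's r of log2 (CPM + 10) was 0.98 for Col4a1 with Col4a2, 0.94 for Col4a3 with Col4a4 and 0.95 for Col4a5 with Col4a6, where each chain's partner was the most alike of all chains. These are descriptions, since the clusters share 1 cell pool. Neighbours that do not lie head-to-head varied. Col9a1 and Col19a1, on opposite strands of chromosome 1 with 4944 bases between their 3′ ends, had r = -0.15. Col6a1 and Col6a2, 85161 bases apart on the same strand of chromosome 10, had r = 0.97.

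The RefSeq promoter windows (250 bases before to 50 after a start) of Col4a1 and Col4a2 are shown because they overlap. The 78 capital bases lie in both windows and read as reverse complements. The window of Col4a4 is shown with capitals on the 179 bases that lie inside the annotated span of Col4a3. They run 5′ to 3′ on each gene's own strand, at chr8:11312777-11313076 (minus), chr8:11312555-11312854 (plus) and chr1:82586800-82587099 (minus).
Col4a1: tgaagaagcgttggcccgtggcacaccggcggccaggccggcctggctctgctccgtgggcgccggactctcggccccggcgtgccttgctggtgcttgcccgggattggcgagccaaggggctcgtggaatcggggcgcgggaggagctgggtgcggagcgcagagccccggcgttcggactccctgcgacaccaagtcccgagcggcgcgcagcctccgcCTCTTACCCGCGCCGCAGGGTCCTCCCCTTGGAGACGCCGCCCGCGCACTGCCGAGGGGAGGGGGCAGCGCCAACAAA
Col4a2: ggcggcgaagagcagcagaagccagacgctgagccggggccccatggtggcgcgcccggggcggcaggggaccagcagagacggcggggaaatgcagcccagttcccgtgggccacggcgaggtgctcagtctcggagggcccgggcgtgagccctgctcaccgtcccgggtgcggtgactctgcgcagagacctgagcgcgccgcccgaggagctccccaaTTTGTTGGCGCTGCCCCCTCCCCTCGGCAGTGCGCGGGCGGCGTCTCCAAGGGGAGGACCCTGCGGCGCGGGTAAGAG
Col4a4: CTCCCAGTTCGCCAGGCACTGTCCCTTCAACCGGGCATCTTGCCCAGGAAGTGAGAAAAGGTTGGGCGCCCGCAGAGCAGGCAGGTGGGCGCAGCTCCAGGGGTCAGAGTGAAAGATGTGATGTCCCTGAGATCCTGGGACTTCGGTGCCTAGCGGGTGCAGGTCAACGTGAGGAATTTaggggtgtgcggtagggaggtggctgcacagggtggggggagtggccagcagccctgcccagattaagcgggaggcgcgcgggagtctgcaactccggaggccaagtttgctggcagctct
On either strand, CCAAT was found in 37.4% of all 32851 windows and in 34.2% of the 38 windows of 35 collagen genes, GGGCGG in 35.7% and 60.5%, and TATAAA in 13.6% and 13.2%. The windows of Col4a1, Col4a2 and Col4a5 held CCAAT, those of Col4a1, Col4a2, Col4a5 and Col4a6 held GGGCGG, and none of the 5 type IV windows held TATAAA. No motif of the 3 contains another, and a match is a description, not a site.

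**Figure D4:**
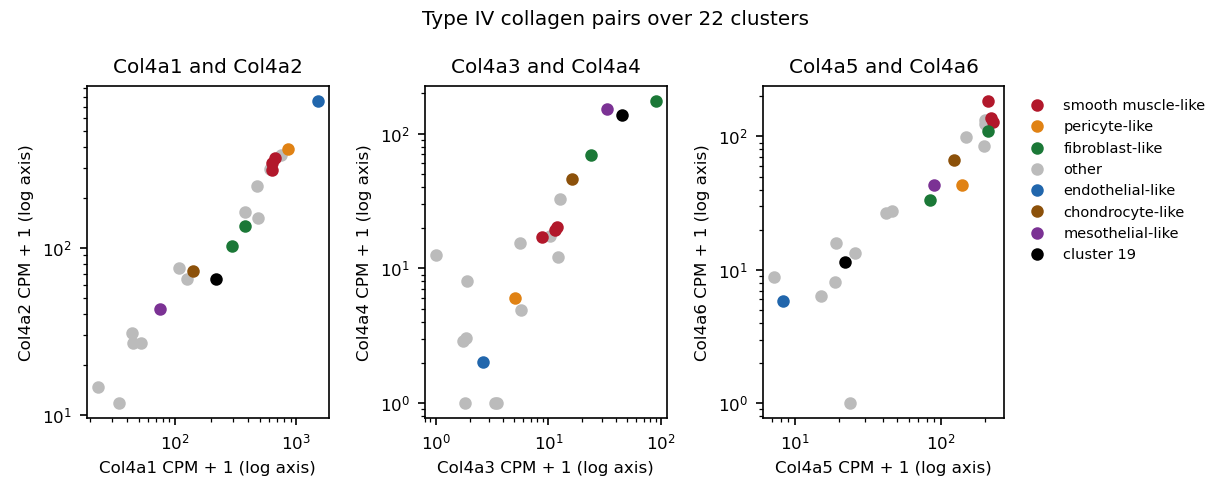
Each point is 1 of 22 clusters, with CPM + 1 of both chains of a type IV pair on log axes and colour for the class. Endothelial-like cells hold the top of the Col4a1 and Col4a2 panel, fibroblast-like and mesothelial-like cells and cluster 19 the top of the Col4a3 and Col4a4 panel, and smooth muscle-like cells the top of the Col4a5 and Col4a6 panel.

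Ratios between chains were taken within classes. Col4a1 had 1.99 UMIs per Col4a2 UMI in endothelial-like cells (95% interval 1.92 to 2.07), 2.02 in smooth muscle-like cells (1.99 to 2.06) and 2.85 in fibroblast-like cells (2.67 to 3.05). By set the ratio ran from 1.91 to 2.07 in endothelial-like, 1.92 to 1.99 in smooth muscle-like sets and 2.79 to 2.92 in fibroblast-like sets. Col1a1 had 0.533 UMIs per Col1a2 UMI in smooth muscle-like cells (0.526 to 0.541) and 0.597 in fibroblast-like cells (0.586 to 0.608). In chondrocyte-like cells it had 0.803 (0.733 to 0.880). By animal this ratio was 0.530, 0.583 and 0.606 in smooth muscle-like sets, against 0.600, 0.616 and 0.613 in fibroblast-like sets, so these ranges overlapped. Col3a1 per Col1a1, pooled, stood at 4.13 in pericyte-like, 2.37 in smooth muscle-like cells and at 2.22 in fibroblast-like ones. By set it was 2.46, 1.95 and 1.81 in smooth muscle-like sets, against 2.11, 2.31 and 2.07 in fibroblast-like sets, so these ranges overlapped. These intervals cover counting error only.

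Fibroblast-like cells fell into 2 clusters, a Pi16 type (762 cells led by Pi16, Clec3b and C3) and a Dio2 type (534 cells led by Dio2, Serpinf1 and Lum), which were compared over 125 and 88 marked cells. Col5a3 rose in the Pi16 type, and the type IV chains Col4a3 and Col4a6 fell. Of 19 chains tested, 1 rose and 2 fell, against 4.11% higher and 3.01% lower among all genes in the test, and the median log2 fold change was -0.03 over the chains and -0.01 over all genes. Col5a3 had 160, 123 and 176 CPM in the Pi16 type, against 41.2, 15.9 and 15.1 CPM in the Dio2 type, with no overlap (log2 fold change 2.73, SE 0.33, adjusted p = 8.75e-06). Col4a3 had 0, 12.4 and 84.3 CPM in the Pi16 type, against 41.2, 79.6 and 90.6 CPM in the Dio2 type (log2 fold change -1.58, SE 0.47, adjusted p = 0.037). These sets overlapped, and the call was lost in the unblocked fit (adjusted p = 0.292). Col4a6 had 25.2, 35.8 and 57.5 CPM in the Pi16 type, against 75.6, 102.4 and 98.1 CPM in the Dio2 type (log2 fold change -1.30, SE 0.31, adjusted p = 0.00852).

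Further fibroblast chains passed the p limit at sizes under the call. Col1a1 averaged 1266 ± 242 CPM in the Pi16 type and 2184 ± 213 CPM in the Dio2 type (log2 fold change -0.79, adjusted p = 0.0016), and Col1a2 had -0.72 (adjusted p = 0.00319). Col14a1 averaged 1373 ± 71.2 CPM in the Pi16 type and 951 ± 172 CPM in the Dio2 type (log2 fold change 0.56, adjusted p = 0.0366). Col3a1 averaged 3434 ± 284 CPM and 3538 ± 600 CPM in these types, at a log2 fold change of -0.03 with an adjusted p of 0.950. The calls for Col4a3 and Col4a6 were lost without the 81 week set (adjusted p = 0.226 and 0.0659) and without the 84 week set (adjusted p = 0.537 and 0.263), and in DESeq2. Of helper genes, the crosslinking enzyme Lox (-1.75) and the lysyl hydroxylase Plod2 (-1.33) fell in the Pi16 type, and Loxl2 (1.19) and the collagen receptor Ddr2 (1.19) rose. Col6a5, a sparse type VI chain, had 11.3 CPM, pooled, in the Pi16 type, 0.245 CPM on 1 UMI in the Dio2 type and 25.2 CPM in mesothelial-like cells. Its 71 UMIs in the Pi16 type came from 12 cells.

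Smooth muscle-like cells held 3 clusters. The largest, led by Tcap, Mylk4 and Susd5 (172 marked cells), was set against a cluster whose leading genes included Igfbp2 and heat shock and immediate early genes (159 marked cells). Here 0 of 17 chains were called either way in edgeR, against 0.0291% higher and 0.407% lower among all genes in the test. In edgeR 4 chains had an unadjusted p under 0.05, and DESeq2 called 0, with 2 such chains. The median log2 fold change was -0.08 over the chains and 0.01 over all genes. Col1a1 averaged 451 ± 43.7 CPM in the Mylk4 type and 638 ± 75.6 CPM in the Igfbp2 cluster (log2 fold change -0.52, SE 0.10, adjusted p = 0.00399), under the size of a call. Col4a1 averaged 637 ± 60.3 and 639.9 ± 6.46 CPM in these clusters (log2 fold change -0.03, SE 0.08).

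The cluster led by Tnnt2, Actc1 and Des (144 marked cells), a comparison added once the clusters had been seen, differed from the Mylk4 type in Col6a6. Of 18 chains 1 rose and 0 fell, against 0.668% higher and 0.607% lower among all genes in the test. Col6a6 had 22.4, 17.9 and 18.9 CPM in the Tnnt2 type, on 33 UMIs, against 8 UMIs and 3.81 ± 2.68 CPM in the Mylk4 type (log2 fold change 2.29, SE 0.52, adjusted p = 0.00114). DESeq2 called 0 chains, and without the 88 week set its adjusted p was 0.103. Col18a1 averaged 510.3 ± 68.3 CPM in the Tnnt2 type and 846 ± 78.3 CPM in the Mylk4 type, with an adjusted p of 2.95e-09 at a log2 fold change of -0.71. Col15a1 had -0.73 (adjusted p = 6.00e-05), Col14a1 0.66 (adjusted p = 0.000102) and Col4a6 0.58 (adjusted p = 0.00277).

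The endothelial-like class of the main clustering was 1 cluster led by capillary genes (Gpihbp1, Cd36 and Fabp4), so no comparison within it was possible there. Clustering of the marked cells alone split endothelial-like cells into 4 clusters. A large-vessel type of 72 cells was led by Cytl1, Bmp4 and Vwf, a capillary type of 511 cells by Cxcl9, Gpihbp1 and Fabp4, a cluster of 148 cells by Sema3g, Rbp7 and Stmn2, and a cluster of 203 cells by Rsad2, Prnd and Rflnb. The large-vessel and capillary types, compared once the clusters had been seen, differed in both type IV pairs tested. Col4a1 and Col4a2 fell in the large-vessel type, and Col4a3, Col4a4 and the fibrillar chains Col5a1, Col5a2 and Col1a2 rose.

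Col4a1 had 166, 133 and 233 CPM in the large-vessel type, against 1257, 1286 and 1649 CPM in the capillary type (log2 fold change -2.97, SE 0.19, adjusted p = 1.95e-07). Col4a2 had 38.2, 36.8 and 67.3 CPM in the large-vessel type, against 609, 707 and 870.1 CPM in the capillary type (log2 fold change -3.89, SE 0.24, adjusted p = 1.35e-07). Col4a4 had 51.0, 133 and 188 CPM in the large-vessel type, on 121 UMIs, against 1 UMI in the capillary type (log2 fold change 7.62, SE 0.50, adjusted p = 2.25e-07). Every set of the 2 types stood apart for these chains. Col4a3 averaged 43.2 ± 18.7 CPM in the large-vessel type and 2.91 ± 3.42 CPM in the capillary type (log2 fold change 3.93, adjusted p = 0.000204). Col5a2 had 166, 124 and 164 CPM in the large-vessel type, against 18.5, 5.81 and 9.36 CPM in the capillary type (log2 fold change 3.88, SE 0.31, adjusted p = 1.29e-06). Col5a1 rose by 2.92 and Col1a2 by 1.47. Col1a1 and Col3a1 were not called, with Col3a1 at 65.7 ± 16.2 CPM in the large-vessel type and 83.6 ± 36.6 CPM in the capillary type.

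Of 11 chains tested between these types, 5 rose and 2 fell, against 12.7% higher and 11.3% lower among all genes in the test, with a median log2 fold change of 0.86 over the chains and -0.01 over all genes. The summed fibroblast marker level was 1211, 2435 and 1789.8 CPM in the large-vessel sets, against 590.5, 289 and 254 CPM in the capillary sets, and the smooth muscle marker level was 803, 1939 and 1440 CPM against 2983, 1639 and 2759 CPM. None of either list was at 0 in either type; their part in the result was not tested. Of folding genes 5 of 13 rose, led by P3h3 (4.27) and Fkbp10 (2.55), and Plod1 fell by 1.58. The crosslinking enzyme Lox rose by 4.12, the collagen receptor Ddr1 by 4.50, and Itga1 fell by 2.12. All 72 large-vessel cells lay in cluster 19 of the main clustering, an unnamed cluster of 103 cells whose leading genes included Vwf, Cytl1 and Bmp4 and the lymphatic genes Ccl21a and Lyve1. There Col4a4 reached 136 CPM, on 142 UMIs in 48 cells, and Col23a1 73.5 CPM, on 77 UMIs in 33 cells. Col23a1 had 0, 101 and 105 CPM in the 81, 84 and 88 week large-vessel sets.

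Further chains varied among the endothelial-like clusters and are given as levels only. Col8a1 had 283, 146 and 209 CPM in the Sema3g cluster, where it was among the 10 leading genes, against 2.06, 3.87 and 8.02 CPM in the capillary type. Col15a1 had 235, 55.5 and 258 CPM in the Rsad2 cluster, against 12.3, 24.2 and 33.4 CPM in the capillary type. Col28a1 had 47.5, 9.25 and 81.8 CPM in the Rsad2 cluster and 22.6, 7.74 and 21.4 CPM in the capillary type, and 0 UMIs in the large-vessel type. The 84 week set was the lowest for Col15a1 and Col28a1 in the Rsad2 cluster.

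**Figure D5:**
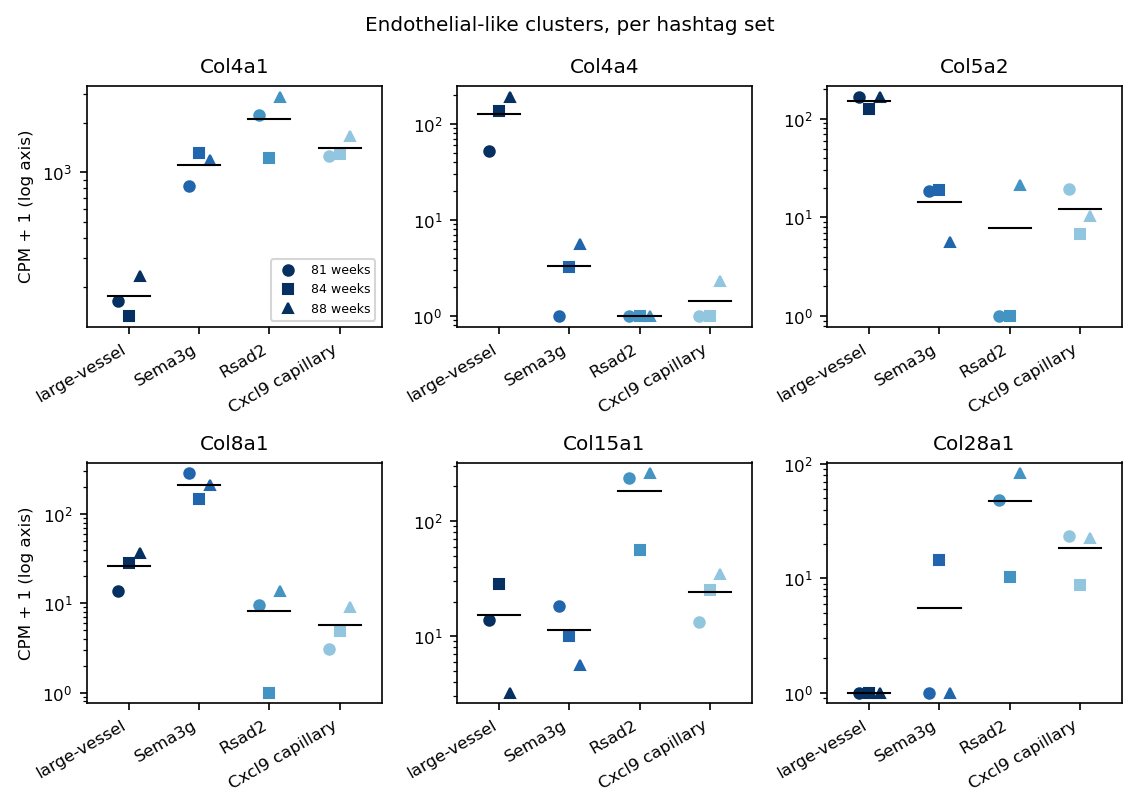
Each panel gives 1 chain as CPM + 1 on a log axis in the 4 endothelial-like clusters of the marked cells, with 1 point per hashtag set and a bar at the mean. Col4a4 and Col5a2 stand highest in the large-vessel type, Col8a1 in the Sema3g cluster at 146 to 283 CPM, and Col15a1 in the Rsad2 cluster.

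Pericyte-like cells (124 cells, 25 with 1 hashtag) had 43.8% of collagen UMIs in fibrillar, 37.4% in basement membrane and 12.9% in beaded filament chains. Their summed smooth muscle marker level was 34055 CPM, against 43990 CPM in smooth muscle-like cells, and its part in these values was not tested. Pooled over hashtag states, Col4a1 stood at 861 CPM (95% interval 804 to 920), Col3a1 at 1145 CPM and Col18a1 at 356 CPM. Col5a3 stood at 63.1 CPM in pericyte-like cells, against 0.755 CPM in smooth muscle-like cells. Col19a1, a FACIT, had 27 UMIs in 20 pericyte-like cells, or 27.1 CPM, against 6.82 CPM in smooth muscle-like cells. With 9, 12 and 4 marked cells per animal no test was made.

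Chondrocyte-like cells (96 cells, led by Ecrg4, Prg4, Chad, Comp and Col2a1) held cartilage chains beside type I and III chains. Of their collagen UMIs 66.6% were fibrillar, 7.99% FACIT and 6.33% network. The fibrillar UMIs included 857 of Col1a1, 1067 of Col1a2 and 933 of Col3a1, against 352 of Col2a1, 258 of Col11a1 and 78 of Col11a2. The summed level of 10 fibroblast markers in chondrocyte-like cells was 33524 CPM, against 39116 CPM in fibroblast-like cells. That of 7 chondrocyte markers was 1913 CPM in chondrocyte-like cells. With the 10% mitochondrial limit 24 cells formed a chondrocyte-like cluster led by Col2a1, and 62 cells formed an unnamed cluster, led by Prg4, that scored highest for fibroblast markers. Col2a1, the main fibrillar chain of cartilage, stood at 407 CPM, against 0 UMIs in endothelial-like, smooth muscle-like and fibroblast-like cells, which allows up to 0.611, 0.0527 and 0.290 CPM. The cells were not alike: 352 Col2a1 UMIs came from 14 of 96 cells, and 1 cell held 205 of them (58.2%). All 108 UMIs of Col10a1, the network chain of hypertrophic cartilage, came from 1 cell, which also held 31 of the 82 Col27a1 UMIs (37.8%) and 12 Col2a1 UMIs, and 0 Col1a1 and Col3a1 UMIs. Other cartilage chains were Col11a1 (258 UMIs in 28 cells), Col11a2 (78 in 20), Col9a1 (49 in 20), Col9a2 (95 in 17) and Col9a3 (52 in 14). Without the Col10a1 cell, Col11a1 stood at 273 CPM and Col27a1 at 59.7 CPM, against 298 and 94.8 CPM with it. By contrast Col1a2 was found in 91 of the 96 cells and Col3a1 in 88, so most of these cells held type I and III chains and no Col2a1. The type VIII chain Col8a1 had 202 UMIs in 23 cells and its partner Col8a2 68 UMIs in 37 cells. The r of 1.00 between Col2a1 and Col10a1 over 22 clusters rests on this cluster, and for Col10a1 on 1 cell.

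The rarest classes are given as pooled levels. Schwann-like cells (17 cells) had Col5a3 at 299 CPM (195 to 438), on 26 UMIs in 64.7% of the cells, and Col28a1 at 34.5 CPM on 3 UMIs. Mesothelial-like cells (51 cells) had Col3a1 at 1276 CPM, Col14a1 at 451 CPM and Col4a4 at 151 CPM. An epithelial-like cluster of 26 cells led by thymic genes (Tbata, Prss16 and Ccl25) had Col12a1, a FACIT, at 176 CPM, against 36.2 CPM in fibroblast-like cells. In fibroblast-like sets, of 42 to 125 cells, Col12a1 ran from 5.08 to 75.6 CPM. Of its 375 UMIs in all fibroblast-like cells 1 cell held 23. Whether its level differed between animals was not tested.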

How the data were processed

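Raw UMI counts of 32285 genes and 3 hashtags in 26916 barcodes were deposited in 1 matrix that pools 4 gene expression and 4 hashtag libraries; the authors made these counts with Cell Ranger 6.0.1, per the file headers, and the submitters' processing notes name Seurat 4.0.5 and mm10. Counting parameters beyond these are not given in the sources used here.

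Hashtags were called with HTODemux (Seurat 5.3.0; cutoffs of 129, 765 and 266 UMIs for hashtags 1, 2 and 3). Cells were kept with 500 genes and 1000 UMIs or more, a mitochondrial share under 15%, no second hashtag and no doublet call. Scrublet in scanpy 1.11.5 called 360 of 11301 cells (3.19%). Cells were clustered (2000 variable genes, 30 components, 15 neighbours, Leiden resolution 0.8) without matrix genes, and clusters were named from marker lists. Cluster names were rebuilt here and can differ from the study's. Clusters of 435, 21 and 103 cells stayed unnamed. The cluster of 435 cells had a summed smooth muscle marker level of 38883 CPM, against 43990 CPM in smooth muscle-like cells. Its summed T cell marker level was 1344 CPM, against 65.6 CPM. With marked cells clustered alone, the smooth muscle-like sets held 175, 469 and 259 cells, against 135, 166 and 174. Over fibroblast-like sets, 3 of 23 chains were then called higher and 15 lower, against 3 and 13 of 23. Of 10070 genes 954 were then higher and 1182 lower, against 1053 and 1291 of 9619.

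Counts of cells with exactly 1 hashtag were summed per animal and class with at least 10 cells and tested with edgeR 4.0.16 (quasi-likelihood F test, TMM, its filter on low counts, animal as a block, Benjamini-Hochberg adjustment). Calls required adjusted p below 0.05 together with a log2 fold change of 1 or more in size. The SE is the log2 fold change over the root of F. The animal numbers pair the sets since the classes come from the same animals. Intervals are exact Poisson or Clopper-Pearson at 95%.

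Named were all chains with at least 50 UMIs and every called chain. Full statistics went to the 2 largest changes each way with 1 sign in all sets and at least 50 CPM in the higher class. They also went to Col1a1, Col3a1, Col4a1, Col18a1, Col8a1, Col6a1 and Col14a1, and up to 2 called genes each way were named per helper list. Members, lists and markers were chosen with earlier results of these data known. Promoters are from RefSeq (GRCm38.p6); 35 of 44 chains had a window. Alternatives tried were DESeq2 1.42.0, its size factors, no low-count filter, other cell filters, other clusterings, no block, and each animal left out. The Tnnt2 and large-vessel comparisons were added after the clusters had been seen.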

Additional observations from a re-analysis of the deposited data

How the results depend on the processing

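Of counts of called chains, 106 stayed within 1.5 times the reported count under the alternatives and 12 did not. Of single fold changes, 883 kept direction and call, 24 lost the call, 4 gained it and 11 changed sign. In smooth muscle-like over fibroblast-like sets, 3 of 23 chains tested were called higher, beside 1053 of 9619 genes. DESeq2 and the fit with no filter on low counts each called 5 of 36 chains higher, beside 824 and 1255 of 17331 genes. With 1 animal left out, 4 to 5 of 23 to 25 chains were called higher, beside 842 to 1122 genes. In endothelial-like over smooth muscle-like sets, 4 of 22 chains were called higher, beside 1781 of 10103 genes. The count was 2 of 20 with the 10% mitochondrial limit, 2 of 19 with matrix genes kept in the clustering and 2 of 22 at resolution 1.2. Genes called higher in these settings numbered 1616 of 9854, 1604 of 9480 and 1709 of 10125. Between the fibroblast-like clusters, 3 of 19 chains were called, beside 164 genes higher and 120 lower of 3986. DESeq2 called 1 of 33 chains, beside 75 genes higher and 55 lower of 15456. Without cells with T cell RNA 1 of 16 chains was called, beside 76 genes higher and 82 lower of 2159. With 1 animal left out, 1 to 3 of 19 to 21 chains were called, beside 137 to 138 genes higher and 93 to 102 lower. In the Tnnt2 comparison 1 of 18 chains was called, beside 44 genes higher and 40 lower of 6591. DESeq2 called 0 of 30 chains, beside 9 genes higher and 5 lower of 15341. Without cells with T cell RNA 0 of 15 chains were called, beside 27 genes higher and 22 lower of 5255. With 1 animal left out, 0 to 1 of 17 to 18 chains were called, beside 36 to 62 genes higher and 25 to 50 lower.

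For endothelial-like over smooth muscle-like sets, the log2 fold change of Col4a4 (-4.57) was 0.58 with the 10% mitochondrial limit, 0.35 with marked cells clustered alone, 0.64 with matrix genes kept and 0.39 at resolution 1.2, and that of Col4a3 (-2.45) was 0.089 with the mitochondrial limit. In those 4 settings the endothelial-like class held a large-vessel cluster of 81, 72, 89 and 89 cells. For endothelial-like over fibroblast-like sets, that of Col18a1 (-0.82) was 0.50 with the mitochondrial limit, 0.53 with no doublet removal and 0.13 with matrix genes kept. That of Col8a1 (0.21) was -1.29 with hashtag counts at least 2 times the cutoff and ran from -0.14 to 0.98 with 1 animal left out. The basement membrane share in endothelial-like cells (89.4%) was 78.8% with the mitochondrial limit, 73.7% with no doublet removal, 85.6% at resolution 1.2 and 80.5% with matrix genes kept. The fibrillar share in smooth muscle-like cells (47.8%) was 46.6% with no doublet removal. The cause of these changes was not tested.

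Without the animal as replicate block, 3 of 23 chains were called higher and 13 lower for smooth muscle-like over fibroblast-like sets. Of 9619 genes 1058 were then higher and 1303 lower. In endothelial-like over smooth muscle-like sets 4 of 22 chains were higher and 18 lower, beside 1781 and 1861 of 10103 genes. In endothelial-like over fibroblast-like sets 2 of 23 chains were higher and 19 lower, beside 1281 and 1555 of 9161 genes. Without that block 2 of 19 chains were called between the fibroblast-like clusters, where Col4a3 lost its call. Of 3986 genes 153 were higher and 101 lower there. Between the Mylk4 and Igfbp2 clusters 0 of 17 chains were called, beside 3 genes higher and 28 lower of 6878. In the Tnnt2 comparison 1 of 18 chains was called, beside 42 genes higher and 32 lower of 6591. The large-vessel comparison called 7 of 11 chains, beside 779 genes higher and 670 lower of 6061. The planned comparison within the endothelial-like class was not run in the main clustering, which held 1 such cluster. Each comparison rests on 3 animals, and few smooth muscle-like and fibroblast-like cells carried a hashtag.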
